A study of Mus musculus with 32 samples.

Results

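Synaptic vesicle and SNARE genes encode proteins of transmitter vesicles and of their docking and fusion at nerve terminals, and SNAREs of other membrane traffic. Members were the probes whose platform gene symbol names a synaptotagmin, synapsin, SV2 protein, complexin, syntaxin, syntaxin-binding protein, VAMP, SNAP protein, synaptoporin, synaptophysin, RIM, Munc13, bassoon or piccolo. A member also needed a detection p-value under 0.05 on at least 3 of 32 arrays. In all, 96 probes of 67 genes matched by symbol, and 72 probes of 51 genes met both conditions, out of 14745 probes of 10308 genes that met the detection condition. The choice used no difference between groups.

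The arrays measured hippocampal RNA of C57BL/6J mice kept on chow, old or young, that were wild type or lacked an inflammasome gene (inflammasomes are assemblies that process inflammatory cytokines). The old groups were the CIAS -/- knockout (6 arrays), which lacks the sensor Nlrp3, the ASC -/- knockout (6 arrays), which lacks the adaptor Pycard, and wild type (6 arrays), all titled 23 months. The young groups, at 1 month, were the CIAS -/- (3 arrays), ASC -/- (3 arrays) and CASP11-/- (4 arrays) knockouts, the last lacking the caspase encoded by Casp4, and wild type (4 arrays). For 5 of the 6 old ASC knockout samples the characteristics give 21 months where the titles give 23. The stated design sets old against young hippocampus in the CIAS knockout, the ASC knockout and wild type. No label states that the samples within a group are separate animals. The p-values therefore rest on the spread among the samples as deposited, which may be technical.

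As background, vesicle fusion is driven by SNAREs: a VAMP protein on the vesicle zips together with a syntaxin and a SNAP-25 family protein on the target membrane. Synaptotagmin 1 senses calcium, complexins clamp and assist the SNARE complex, and Munc13 proteins guide its assembly. RIM, bassoon and piccolo scaffold the active zone, the membrane patch where vesicles dock, and synapsins tether the reserve pool of vesicles. Other syntaxins and VAMPs serve the endoplasmic reticulum, Golgi and endosomes of every cell.

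Not every part of this machinery was measured. The probe of Snap25, the SNAP-25 gene itself, met the detection p-value on 1 of 32 arrays, with signals between 40.87 and 67.89, and that of Bsn (bassoon) on 0. Of the 24 matching probes left out, 21 were detected on 0 arrays and 3 on 1 array, and they included all probes of Syt2, Syt6, Syt7 and Stx16. Just inside the limit lay Stx2, detected on 3 arrays, and a probe of Vamp7, on 4. Of the 72 members, 58 were detected on all 32 arrays and 14 on fewer. By role they fell into 13 probes of 10 synaptotagmins, 9 of 7 synapsins and vesicle membrane proteins, 6 of 3 SNAREs of neuronal exocytosis, 7 of 6 complexins and SNARE regulators, 8 of 7 active zone proteins and 27 of 17 SNAREs of other membrane traffic. The symbol rule also took 2 probes of Snap91, which encodes a clathrin adaptor and no SNARE.

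Some libraries stand apart. On replicate 6 of old wild type the striatal genes Rgs9 and Drd1 differed by 5.01 and 4.51 (log2) from the mean of its group's remaining 5 arrays, and the dentate gyrus gene C1ql2 by -5.08. Its summed level of the hippocampal subfield markers was 3315, against 10794 to 12832 on the other 5, and of the excitatory neuron markers 5046, against 9384 to 10642. The median of its members' deviations from the group mean was -0.099. On replicate 5 of old CIAS knockout the Y-linked gene Eif2s3y (9.91) and Xist (7.76) were both high, a pair seen together on no other array. Eif2s3y was low on 7 arrays: 2 of young and 1 of old wild type, 2 of young ASC and 2 of young CASP11 knockout. Results of members are therefore given with replicate 6 of old wild type and, where a call changes and for some other values, also without it. Counts of called probes among cell type markers and other listed genes are given with it only. Per array 13172 to 13900 probes were detected, with a median signal of 56.24 to 79.02. Probes of Nlrp3 and Pycard were detected on 0 arrays and 1 of 3 Casp4 probes on all 32, and since it is not stated whether a probe lies in the deleted stretch, none checks a knockout. In bulk tissue, fewer cells of a type and less RNA per cell cannot be told apart.

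Levels below are log2 signals after background correction and quantile normalization, differences are on the log2 scale with their standard error (SE), and a member was called at limma's Benjamini-Hochberg adjusted p under 0.05 over all 14745 probes. In old CIAS knockout against old wild type, 8 of 72 members were called (11.1%), beside 7.92% of all probes. Among them 7 were lower, beside 4.8% of all probes (Rims1, Rims2, 1 probe of Pclo, Syt1, 1 probe of Syt11, Stxbp5l and Syn2), and 1, a probe of Syn1, was higher, beside 3.12%. Old ASC knockout had 3 of 72 called (4.17%, beside 3.82% of all probes): Syn1 and Vamp2 higher, beside 1.74% of all probes, and Syt1 lower, beside 2.08%. With array weights 0 were higher there and 3 lower (Syt1, Syn2 and Stxbp5l), beside 5.61% of all probes in either direction. Without replicate 6 of old wild type 6 were called, beside 4.03% of all probes, with Syn2, Stxbp5l and a probe of Snap91 gained, each lower. Against young wild type, Syn2 and Syt1 were called lower in young CASP11 knockout and 0 members higher (2.78%, beside 2.63% of all probes in either direction, 1.86% lower and 0.773% higher). Comparisons with wild type of the same age share its arrays, 6 old or 4 young, and age in wild type uses both.

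Age changed few members. Over the mean of the 3 genotypes Stx1a and Stx12 fell and 0 members rose (2.78% of members, beside 5.52% of all probes, 2.5% lower and 3.02% higher). In wild type Cplx2 and Stxbp2 rose and 0 members fell (2.78%, beside 5.25% of all probes, 2.77% higher and 2.48% lower). By limma 0 members were called for age in ASC knockout, beside 0.264% of all probes (0.0949% higher, 0.17% lower), and 0 in CIAS knockout, beside 0.692% (0.414% higher, 0.278% lower). Likewise 0 were called for the difference between a knockout's and wild type's age effect, beside 0% of all probes for ASC and 0.359% for CIAS (0.115% higher, 0.244% lower). In young ASC knockout 0 members were called, beside 0.00678% of all probes, and in young CIAS knockout 0, beside 0%. With all arrays included, the share of members called outside old CIAS knockout lay near or under that of all probes. This did not hold for old ASC knockout without replicate 6 of old wild type, where 6 of 72 members were called, beside 4.03%. Leaving out replicate 5 of old CIAS knockout as well gave 7, beside 4.5%.

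At an unadjusted p under 0.05 the counts were 25 of 72 members in old CIAS knockout (34.7%, beside 23.2% of all probes), 19 in old ASC knockout (26.4%, beside 21.7%) and 12 in CASP11 knockout (16.7%, beside 15.3%). They were 3 in young CIAS knockout (4.17%, beside 7.81%) and 1 in young ASC knockout (1.39%, beside 4.5%). For age they were 8 over the mean of the genotypes (11.1%, beside 17.8%), 9 in CIAS knockout (12.5%, beside 12.2%), 6 in ASC knockout (8.33%, beside 7.66%) and 12 in wild type (16.7%, beside 20.2%). For the difference in age effect they were 11 for CIAS (15.3%, beside 13.8%) and 6 for ASC (8.33%, beside 10.1%). Groups without any overlap between their arrays were found for 9 members in young CIAS knockout against young wild type, beside 9.81% of all probes, 4 in young ASC knockout, beside 6.12%, 2 for age in ASC knockout, beside 4.75%, and 1 for age in CIAS knockout, beside 6.91%.

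The members did not shift as a block. Their median difference in old CIAS knockout against old wild type was -0.003, beside 0.019 for all probes, with 35 members higher and 37 lower in sign. It was 0.010 in old ASC knockout, beside 0.015, in young CASP11 knockout -0.023, beside 0.012, and for age in wild type -0.008, beside -0.009. The median within-group SD of the members was 0.158, beside 0.150 for all probes.

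**Figure D1:**
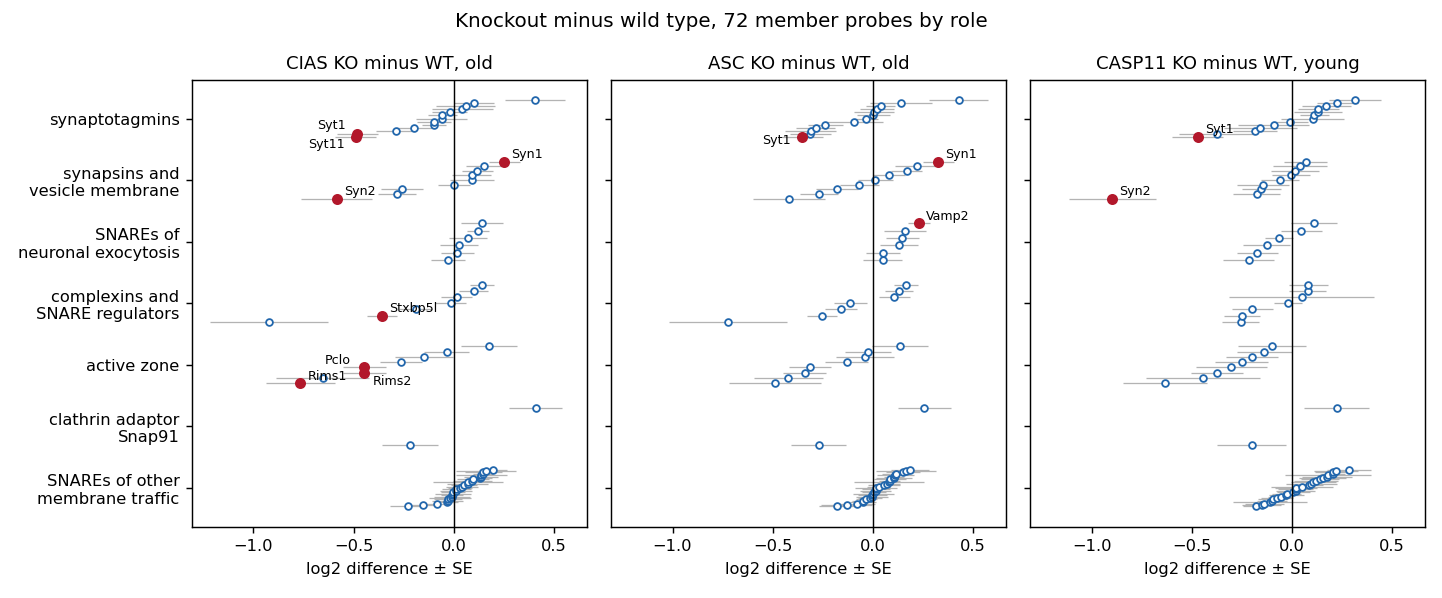
Log2 difference ± SE (x axis) of each of the 72 members, in rows by role, for old CIAS knockout minus old wild type, old ASC knockout minus old wild type and young CASP11 knockout minus young wild type. Filled red points with a gene name passed adjusted p under 0.05, open points did not. Active zone members lie left of 0 in 7 of 8 cases in both old panels, which share the old wild type arrays, and in 8 of 8 in the CASP11 panel. The 8 include both Pclo probes, and the share of all probes left of 0 is not given here.

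Active zone genes held 3 of the 7 lower calls in old CIAS knockout. Of 8 probes, 3 fell, beside 4.8% of all probes, and 0 rose, beside 3.12%, with a median of -0.354, beside 0.019 for all probes. Rims1 encodes a RIM scaffold that binds Rab3 on vesicles and recruits calcium channels. Its level in old CIAS knockout ran from 5.75 to 7.11 with a median of 6.84, against 6.86 to 7.58 with a median of 7.39 in old wild type. Replicates 1 and 6 of the knockout lay lowest, at 5.97 and 5.75, and 3 knockout arrays overlapped with 1 wild type array, replicate 6. Rims1 fell by 0.77 ± 0.17 (SE, adjusted p 0.00557, 0.588-fold), and by 0.86 without replicate 6 of old wild type (adjusted p 0.00178).

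Rims2 encodes a second RIM of the same family. It ran from 7.59 to 8.34 with a median of 8.20 in old CIAS knockout, against 8.39 to 8.94 with a median of 8.51 in old wild type. The groups did not overlap, which held for 1 of 72 members and 2.96% of all probes. Replicate 6 was the lowest of the knockout and replicate 6 the highest of wild type. Rims2 fell by 0.45 ± 0.11 (SE, adjusted p 0.00931), and by 0.38 without replicate 6 of old wild type (adjusted p 0.0234).

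Pclo encodes piccolo, a giant scaffold of the active zone. Its probe ILMN_2665813 ran from 5.93 to 6.88 with a median of 6.50 in old CIAS knockout, against 6.75 to 7.13 with a median of 6.91 in old wild type, and 1 knockout array overlapped. This probe fell by 0.45 ± 0.11 (SE, adjusted p 0.00937). The other Pclo probe, ILMN_2665805, differed by -0.26 ± 0.11 (SE) and was not called (adjusted p 0.121). Their deviations from the group means correlated at 0.63 over the 32 arrays, which share depth and normalization (a description).

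The same genes in the other groups did not pass. The differences of old ASC knockout from old wild type were -0.42 for Rims1 (adjusted p 0.15), -0.34 for Rims2 (adjusted p 0.066) and -0.31 for Pclo ILMN_2665813 (adjusted p 0.088). In young CASP11 knockout Rims1 read 6.55, 6.66, 6.37 and 6.73, against 7.32, 7.08, 7.22 and 7.23 in young wild type. Every CASP11 array thus lay below every young wild type array, and 13.3% of all probes did not overlap in this comparison. The Rims1 difference of -0.63 was not called (adjusted p 0.11), except with array weights (-0.61, adjusted p 0.0321). Young CIAS knockout read 6.82, 6.80 and 7.13 for Rims1, a difference of -0.30 (adjusted p 0.80). The difference between the CIAS and wild type age effects was -0.47 for Rims1 (adjusted p 0.50), -0.35 for Rims2 (adjusted p 0.39) and -0.58 for Pclo ILMN_2665813 (adjusted p 0.12), so a larger effect in old than in young knockouts was not shown.

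Unc13c, a Munc13 vesicle-priming gene named here after its values were seen, had 1 array far from the rest. Old wild type read 6.55 to 6.96 on 5 arrays and 8.93 on replicate 6, against 6.29 to 6.68 in old CIAS knockout. Its difference was -0.66 with that array and -0.30 without it, and neither passed (adjusted p 0.0757 and 0.064). Between young CASP11 knockout and young wild type the difference was -0.44 (adjusted p 0.50). It was -0.45 (adjusted p 0.0257) when replicate 6 of old wild type, which is in neither group but enters the shared spread, was left out. Rims3, Unc13b and Unc13d were not called in any of the 11 comparisons.

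Synaptotagmins are vesicle proteins, many of which bind calcium. Of 13 probes, 2 fell in old CIAS knockout, beside 4.8% of all probes, and 0 rose, beside 3.12%, with a median of -0.061. Syt1 encodes the calcium sensor of fast transmitter release. It ran from 11.79 to 12.20 with a median of 12.00 in old CIAS knockout, against 11.93 to 12.75 with a median of 12.60 in old wild type. Only replicate 6 of old wild type lay within the knockout's range, and the other 5 were at 12.42 or above. Syt1 fell by 0.48 ± 0.10 (SE, adjusted p 0.00349, 0.716-fold), and by 0.59 without that array (adjusted p 2.82e-05).

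Syt1 also fell in old ASC and young CASP11 knockout. Old ASC knockout ran from 11.72 to 12.32 with a median of 12.19, and the fall of 0.35 ± 0.10 (SE, adjusted p 0.0481) lay at the threshold. It was kept when replicate 6 of old wild type (adjusted p 0.00271), replicate 2, 3 or 6 of old ASC knockout, or replicate 2 or 6 of old CIAS knockout was left out, and lost without any of the other 26 arrays (adjusted p up to 0.143). It was also lost with the deposited normalized values (adjusted p 0.055), without a filter (0.0756), with 1 probe per gene (0.0512) and with sex-linked transcripts as a covariate (0.0644). Young CASP11 knockout read 11.85, 11.81, 11.82 and 11.73, against 12.29, 12.17, 12.34 and 12.29 in young wild type. These groups did not overlap, as for 14 of 72 members and 13.3% of all probes, and Syt1 fell by 0.47 ± 0.13 (SE, adjusted p 0.0376). Leaving out any of the 8 arrays compared ended that call (adjusted p up to 0.0944), as did dropping the filter on dim probes (adjusted p 0.0595). In young CIAS knockout Syt1 read 12.16, 12.06 and 12.06, a difference of -0.18 (adjusted p 0.80).

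Syt11 encodes a synaptotagmin that does not bind calcium, and its 3 probes disagreed. Probe ILMN_3063644 ran from 6.12 to 6.94 with a median of 6.58 in old CIAS knockout, against 6.94 to 7.17 with a median of 7.03 in old wild type, the ranges meeting at their ends. It fell by 0.49 ± 0.10 (SE, adjusted p 0.00349). Probes ILMN_1233402 and ILMN_3141334 each differed by -0.10 and were not called (adjusted p 0.32 and 0.501). In wild type the first probe's old arrays all lay above its young arrays of 6.50, 6.68, 6.70 and 6.79, a difference of 0.38 (adjusted p 0.0517). There 5.97% of all probes did not overlap. The difference between the CIAS and wild type age effects was -0.70 ± 0.17 (SE, adjusted p 0.0633), and -0.72 without replicate 6 of old wild type (adjusted p 0.0404). Without that array 4 members, not 2, were called for age in wild type, beside 6.73% of all probes. Syt1 (0.33, adjusted p 0.0313), Syt11 (0.40, adjusted p 0.0413) and Syt13 (-0.30, adjusted p 0.0398) were gained and Stxbp2 was lost. Syt13, an atypical synaptotagmin, stood at 7.67 on replicate 6 and at 8.88 to 9.09 on the other 5 old wild type arrays, against 8.98, 9.32, 9.44 and 9.41 in young wild type.

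Complexins and SNARE regulators held a lower call in old CIAS knockout and both higher calls for age in wild type. Stxbp5l encodes tomosyn-2, which binds syntaxin and SNAP-25 and holds back vesicle priming. It ran from 6.67 to 7.07 with a median of 6.81 in old CIAS knockout, against 6.96 to 7.48 with a median of 7.17 in old wild type, and 1 knockout array overlapped with 1 of wild type. It fell by 0.36 ± 0.076 (SE, adjusted p 0.00338, 0.780-fold), and by 0.41 without replicate 6 of old wild type (adjusted p 0.000825). Old ASC knockout differed by -0.25 (adjusted p 0.053), and by -0.30 without that array (adjusted p 0.024). The difference between the CIAS and wild type age effects was -0.43 (adjusted p 0.104), and -0.48 without that array (adjusted p 0.0425).

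Of the 7 lower calls in old CIAS knockout, 6 were kept when any 1 of 32 arrays was left out and under every other setting in which the probe was tested: Rims1, Rims2, Pclo, Syt1, Syt11 and Stxbp5l. Replicate 6 of old CIAS knockout was the lowest of its group for Rims1 (5.75), Rims2 (7.59), Pclo (5.93), Syt1 (11.79) and Stxbp5l (6.67). For Syt11 the lowest was replicate 5 (6.12). Replicate 6 also had the fewest probes detected of all arrays (13172). The 6 calls were kept without it but rest on the same arrays, so they are not 6 separate results. Because these 6 genes were chosen for keeping their calls, the upstream sequences of the 5 with an entry are shown only as a description of where their transcripts start. Each is the 250 bases before the gene's start in RefSeq's GRCm38.p6 annotation, 5′ to 3′ on the gene's strand, and capitals mark a GC box (GGGCGG, or CCGCCC on the opposite strand), the motif of Sp1 family factors. Pclo lies at chr5:14514668-14514917 on the plus strand, Rims1 at chr1:22806159-22806408, Stxbp5l at chr16:37384959-37385208, Syt1 (the first of 2 entries) at chr10:109010976-109011225 and Syt11 at chr3:88772600-88772849, these 4 on the minus strand. Rims2 is named only.
Pclo: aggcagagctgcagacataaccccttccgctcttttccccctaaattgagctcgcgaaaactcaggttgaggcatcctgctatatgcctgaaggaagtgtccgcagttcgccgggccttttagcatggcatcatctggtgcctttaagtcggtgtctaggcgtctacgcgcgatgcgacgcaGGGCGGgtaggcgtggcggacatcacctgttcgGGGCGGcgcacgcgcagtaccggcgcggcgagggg
Rims1: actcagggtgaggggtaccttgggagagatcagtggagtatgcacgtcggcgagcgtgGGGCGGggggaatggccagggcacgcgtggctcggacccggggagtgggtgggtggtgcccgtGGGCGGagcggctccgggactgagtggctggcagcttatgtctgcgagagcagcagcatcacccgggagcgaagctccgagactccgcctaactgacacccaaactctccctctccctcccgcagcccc
Stxbp5l: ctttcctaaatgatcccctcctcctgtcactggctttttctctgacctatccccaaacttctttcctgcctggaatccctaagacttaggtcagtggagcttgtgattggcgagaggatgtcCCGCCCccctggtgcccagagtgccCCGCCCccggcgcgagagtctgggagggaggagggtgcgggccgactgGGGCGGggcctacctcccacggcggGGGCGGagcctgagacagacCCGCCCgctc
Syt1: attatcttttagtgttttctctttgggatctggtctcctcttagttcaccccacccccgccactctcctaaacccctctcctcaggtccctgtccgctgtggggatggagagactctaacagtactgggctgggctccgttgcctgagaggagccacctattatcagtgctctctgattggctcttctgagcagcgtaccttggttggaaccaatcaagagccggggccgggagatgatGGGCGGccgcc
Syt11: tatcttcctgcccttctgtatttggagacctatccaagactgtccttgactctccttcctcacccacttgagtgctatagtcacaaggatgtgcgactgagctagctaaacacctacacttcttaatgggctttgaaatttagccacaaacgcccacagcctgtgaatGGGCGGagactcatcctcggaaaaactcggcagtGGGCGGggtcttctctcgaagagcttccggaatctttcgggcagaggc

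The GC box was found in all 5, with 2 matches in Pclo, 2 in Rims1, 5 in Stxbp5l, 1 in Syt1 and 2 in Syt11, beside a share of 32.7% of 32851 promoters of the same length. Guanine and cytosine made up 61.2% of the window in Pclo, 68.0% in Rims1, 64.8% in Stxbp5l, 56.4% in Syt1 and 51.2% in Syt11, beside a median of 52.4% over all promoters. The cAMP response element (TGACGTCA, in 1.55% of promoters), its half-site (TGACG, which the full element contains, in 17.8%) and the TATA box (TATAAA, in 12.4%) were searched on both strands and had 0 matches in the 5 windows. A match is a string of letters and not a measured binding site.

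**Figure D2:**
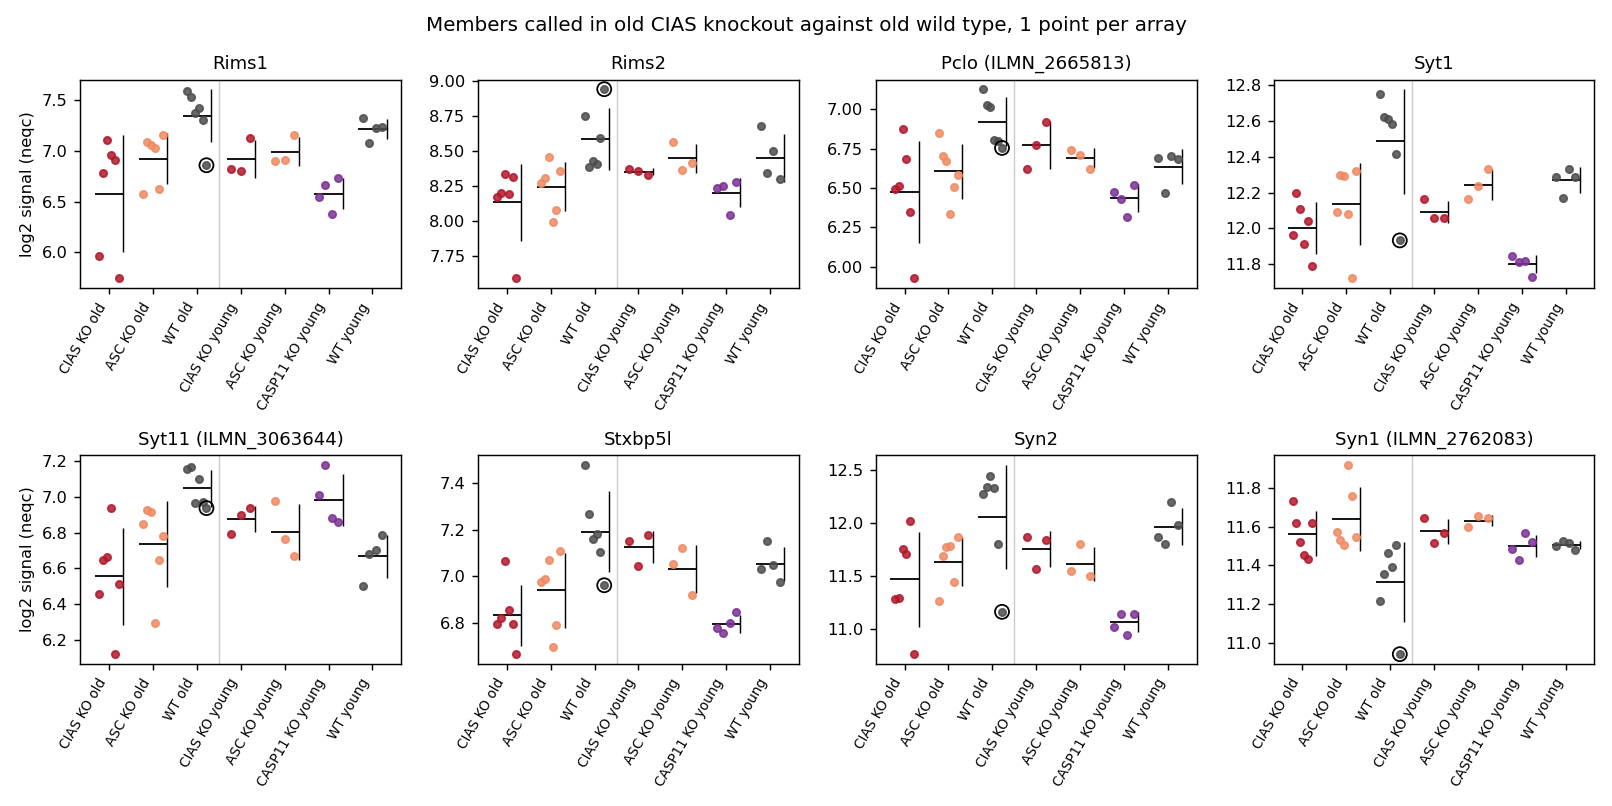
Log2 signal (y axis) of the 8 probes called in old CIAS knockout against old wild type, 1 point per array, with the group mean (horizontal line) and SD (vertical line). The ringed point is replicate 6 of old wild type, which is the lowest of its group in 7 of the panels and the highest in that of Rims2, and replicates 1 and 6 of old CIAS knockout lie far below the rest for Rims1.

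Cplx2 encodes complexin 2, which binds the assembled SNARE complex. In wild type it ran from 8.51 to 9.10 with a median of 8.68 on old arrays, against 7.79, 7.48, 7.58 and 7.37 on young arrays. The groups did not overlap, as for 7 of 72 members and 5.97% of all probes. Cplx2 rose by 1.16 ± 0.33 (SE, adjusted p 0.0354, 2.24-fold), the largest change of any member called for age. Old ASC knockout read 7.39 to 8.35 with a median of 8.06, against 7.77, 8.37 and 8.14 in young ASC knockout, a difference of -0.10 (adjusted p 0.98). Old CIAS knockout scattered from 6.33 to 9.35 with a median of 7.73, against 8.46, 8.02 and 8.35 in young CIAS knockout, a difference of -0.48 (adjusted p 0.63).

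Few probes spread as widely as Cplx2 within groups. Its pooled SD of 0.551 lay at percentile 99.2 of all probes, with an SD of 1.11 among the 6 old CIAS arrays and 0.201 among the 6 old wild type arrays. The difference between the knockout's and wild type's age effect was -1.26 for ASC (adjusted p 0.402) and -1.64 for CIAS (adjusted p 0.11). Replicate 5 of old CIAS knockout, the array with both sex-linked transcripts, was the 9.35. Without it the CIAS difference in age effect was -1.95 (adjusted p 0.024) and old CIAS knockout differed from old wild type by -1.23 (adjusted p 0.00203), beside -0.92 ± 0.30 (SE, adjusted p 0.0505) with it. The age call in wild type ended without any 1 of the 4 young wild type arrays or without replicate 1 or 4 of old wild type (adjusted p up to 0.0979), and without a filter on dim probes (adjusted p 0.0668). With the strict filter the old CIAS difference passed (adjusted p 0.0494).

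Stxbp2 encodes a syntaxin-binding protein best known from blood cells and epithelia. In wild type it ran from 8.86 to 9.29 with a median of 8.99 on old arrays, against 8.78, 8.68, 8.64 and 8.66 on young arrays. The groups did not overlap, beside 5.97% of all probes. Stxbp2 rose by 0.32 ± 0.088 (SE, adjusted p 0.0313, 1.25-fold), and the difference without replicate 6 was 0.26 (adjusted p 0.0556). The call also ended without replicate 2, 3 or 4 of young or replicate 3 of old wild type (adjusted p up to 0.086). Cplx1, the major complexin of many forebrain neurons, read 13.21 to 13.55 in old wild type, against 13.36 to 13.49 in young wild type, a difference of -0.02 (adjusted p 0.89), and was called in 0 of 11 comparisons, which ranged from -0.03 to 0.16.

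**Figure D3:**
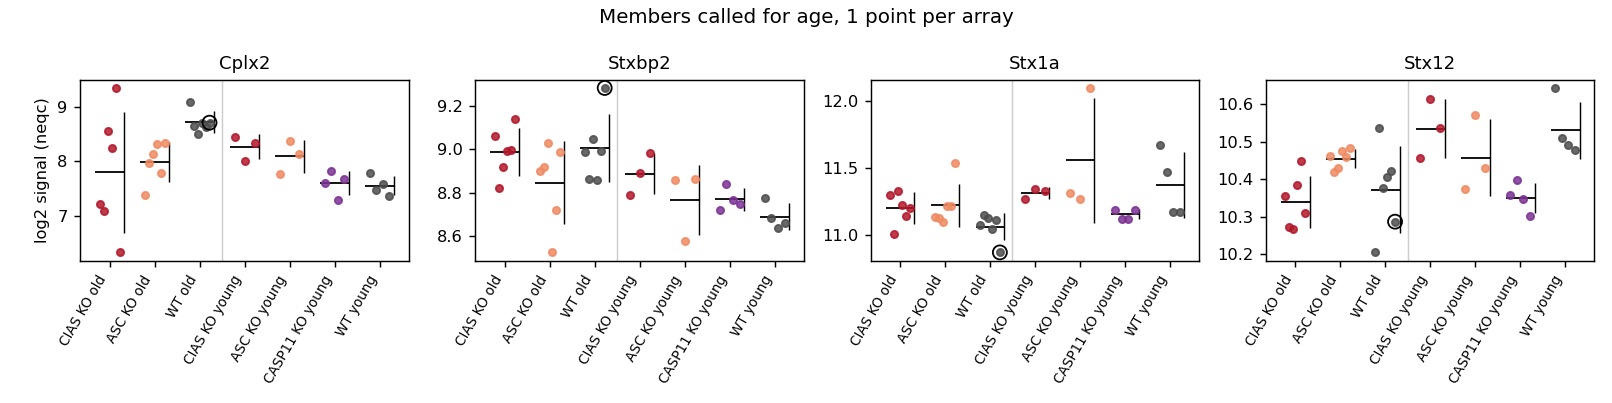
Log2 signal (y axis) of the 4 members called for age, 1 point per array, with group mean (horizontal line) and SD (vertical line) and old groups left of young ones. The ringed point is replicate 6 of old wild type; Cplx2 separates old from young wild type, while its 6 old CIAS knockout arrays spread from 6.33 to 9.35.

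Synapsins and vesicle membrane proteins moved in both directions. Of 9 probes, 1 rose in old CIAS knockout, beside 3.12% of all probes, and 1 fell, beside 4.8%, with a median of 0.088. Syn2 encodes synapsin II, a phosphoprotein that tethers vesicles. It ran from 10.77 to 12.02 with a median of 11.50 in old CIAS knockout, against 11.16 to 12.44 with a median of 12.30 in old wild type. The ranges overlapped through replicate 6 (11.16) and replicate 5 (11.80) of wild type. Syn2 fell by 0.58 ± 0.18 (SE, adjusted p 0.039), and by 0.76 without replicate 6 of old wild type (adjusted p 0.00192). The call ended without replicate 1, 2, 3 or 4 of old wild type or replicate 1, 2 or 6 of old CIAS knockout (adjusted p up to 0.134), without a filter (adjusted p 0.0727) and when sex-linked transcripts entered as a covariate (adjusted p 0.0517).

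In young CASP11 knockout Syn2 read 11.02, 11.14, 10.95 and 11.15, against 11.87, 11.81, 12.20 and 11.98 in young wild type. Every CASP11 array lay below every wild type array, and 13.3% of all probes did not overlap there. Syn2 fell by 0.90 ± 0.22 (SE, adjusted p 0.0203, 0.537-fold). That call ended without replicate 3 of young wild type or replicate 1 or 3 of CASP11 knockout (adjusted p up to 0.0722). In old ASC knockout the difference was -0.42 (adjusted p 0.17), and -0.60 without replicate 6 of old wild type (adjusted p 0.0265).

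Syn1 encodes synapsin I, and its probe ILMN_2762083 was higher in both old knockouts. It ran from 11.43 to 11.73 with a median of 11.57 in old CIAS knockout and from 11.50 to 11.92 with a median of 11.56 in old ASC knockout, against 10.94 to 11.51 with a median of 11.38 in old wild type. Syn1 rose by 0.25 ± 0.077 (SE, adjusted p 0.0419) in the CIAS and by 0.33 ± 0.077 (SE, adjusted p 0.0197) in the ASC knockout. Without replicate 6 of old wild type the CIAS difference was 0.18 (adjusted p 0.107) and the ASC difference 0.25 (adjusted p 0.033). The CIAS call also ended without replicate 1 or 2 of old wild type or 1, 2 or 6 of old CIAS knockout (adjusted p up to 0.112), and the ASC call without replicate 4 or 5 of old ASC knockout (adjusted p up to 0.0635). With array weights neither passed, at 0.15 in the CIAS (adjusted p 0.11) and 0.17 in the ASC knockout (adjusted p 0.0651). The CIAS call was lost too without a filter (adjusted p 0.0592) and with sex-linked transcripts as a covariate (adjusted p 0.0502). The brighter Syn1 probe, ILMN_1235133, differed by 0.15 (adjusted p 0.31) in the CIAS and by 0.01 (adjusted p 0.95) in the ASC knockout. The deviations of the 2 probes from their group means correlated at -0.041.

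Synaptophysin (Syp), an abundant vesicle membrane protein, was called in 0 comparisons. It read 13.36 to 13.51 in old CIAS knockout and 12.96 to 13.50 in old ASC knockout, against 12.80 to 13.57 in old wild type, where replicate 6 gave the 12.80. Its 11 differences lay between -0.12 and 0.15, and those of the brighter Syn1 probe between -0.18 and 0.15. The 2 Sv2a probes, for a vesicle glycoprotein, differed by -0.28 and -0.26 in old CIAS knockout and were not called (adjusted p 0.0619 and 0.126). Sv2b differed by 0.12 (adjusted p 0.38). Syn3 and Synpr, detected on 17 and 7 arrays, were called in 0 comparisons.

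Among the SNAREs of neuronal exocytosis, Vamp2 rose in old ASC knockout and Stx1a fell with age. Vamp2 encodes the main vesicle SNARE of the forebrain. It ran from 12.32 to 12.54 with a median of 12.43 in old ASC knockout, against 12.04 to 12.30 with a median of 12.24 in old wild type, without overlap (3 of 72 members and 2.07% of all probes). Vamp2 rose by 0.23 ± 0.056 (SE, adjusted p 0.0224, 1.17-fold), and by 0.20 without replicate 6 of old wild type (adjusted p 0.0425). That call ended without replicate 3 of old wild type or replicate 4 or 5 of old ASC knockout (adjusted p up to 0.072), and with array weights (0.16, adjusted p 0.0596). In old CIAS knockout Vamp2 differed by 0.12 (adjusted p 0.196).

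Stx1a encodes syntaxin 1A of the presynaptic membrane. Old arrays ran from 11.01 to 11.33 in CIAS knockout, from 11.10 to 11.54 in ASC knockout and from 10.87 to 11.15 in wild type. Young arrays read 11.27, 11.35 and 11.33 in CIAS knockout, 11.31, 11.27 and 12.10 in ASC knockout and 11.67, 11.47, 11.17 and 11.17 in wild type. Old and young arrays overlapped in both knockouts and not in wild type, where 5.97% of all probes did not overlap. Over the mean of the 3 genotypes Stx1a fell by 0.25 ± 0.072 (SE, adjusted p 0.0325), with differences of -0.11 in CIAS knockout, -0.34 in ASC knockout and -0.31 in wild type, each not called on its own (adjusted p 0.79, 0.437 and 0.12). The call ended without replicate 4 of young ASC knockout (the 12.10), replicate 1 or 2 of young wild type or replicate 2 or 4 of young CIAS knockout (adjusted p up to 0.101), without a filter (adjusted p 0.0505) and when sex-linked transcripts entered as a covariate (adjusted p 0.054). The 4 probes of Vamp1, the related vesicle SNARE, were called in 0 comparisons.

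SNAREs of other membrane traffic gave 1 call among 27 probes and 11 comparisons. Stx12, an endosomal syntaxin, ran from 10.27 to 10.45 in old CIAS, from 10.42 to 10.48 in old ASC knockout and from 10.21 to 10.54 in old wild type. Young arrays read 10.46, 10.61 and 10.54 in CIAS knockout, 10.37, 10.57 and 10.43 in ASC knockout and 10.64, 10.51, 10.49 and 10.48 in wild type. The old and young ranges of Stx12 overlapped in the ASC knockout and in wild type and not in the CIAS knockout. In the latter 6.91% of all probes did not overlap. Over the mean of the 3 genotypes Stx12 fell by 0.12 ± 0.036 (SE, adjusted p 0.0435), with differences of -0.20 in CIAS knockout, 0.00 in ASC knockout and -0.16 in wild type. The call was lost in 16 of 32 fits that each left out 1 array (adjusted p up to 0.137). These 16 were young wild type 1 and 2, old wild type 1 and 3, young ASC 2 and 4, old ASC 1, 2, 3 and 5, young CIAS 2 and 4, old CIAS 2, 3 and 6, and CASP11 replicate 1. It was also lost with the covariate for sex-linked transcripts (adjusted p 0.0572). The 27 probes ranged in old CIAS knockout from -0.23 to 0.20 with a median of 0.029.

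Where a comparison called no member, the 3 with the smallest p-values were these. For age in ASC knockout they were Stx1a (-0.34, adjusted p 0.437), a probe of Vamp1 detected on 5 arrays (0.27, adjusted p 0.44) and Snap23 (-0.21, adjusted p 0.483), the widely expressed SNAP-25 relative. For age in CIAS knockout they were Stxbp5l (-0.29, adjusted p 0.162), Stx12 (-0.20, adjusted p 0.167) and Stx6 (0.30, adjusted p 0.211), a syntaxin of the trans-Golgi network. The difference of the ASC age effect from that of wild type was 0.27 for Vamp2 (adjusted p 0.323), 0.38 for the same Vamp1 probe (adjusted p 0.36) and -1.26 for Cplx2 (adjusted p 0.402). That of the CIAS age effect was led by Syt11 ILMN_3063644, Stx6 (0.49, adjusted p 0.102) and Stxbp5l. In young ASC knockout the members were the same Vamp1 probe (-0.33, adjusted p 0.811), Stx4a (0.21) and Stx18 (-0.12), both at an adjusted p of 0.999. In young CIAS knockout they were Stx6 (-0.35, adjusted p 0.333), Syt11 ILMN_1233402 (0.20, adjusted p 0.482) and Stx3 ILMN_2665125 (-0.22, adjusted p 0.634).

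**Figure D4:**
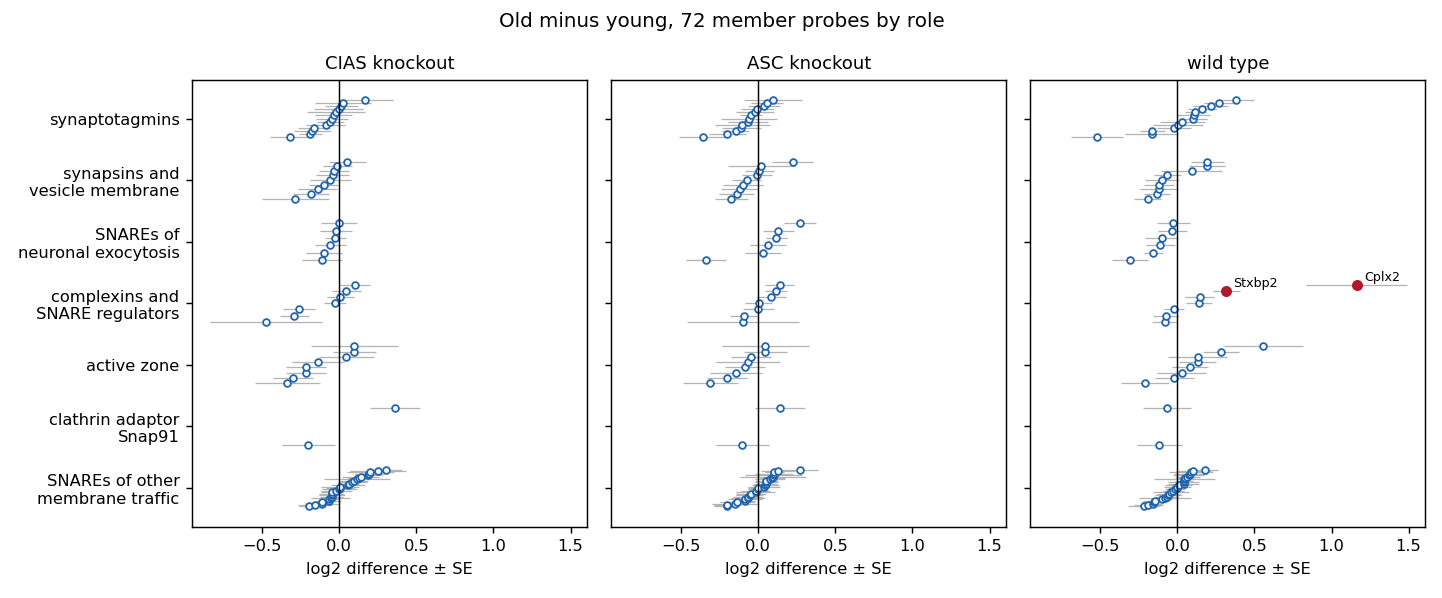
Log2 difference ± SE (x axis), old minus young, of each of the 72 members in rows by role, in CIAS knockout, ASC knockout and wild type. Filled red points passed adjusted p under 0.05, which holds for Cplx2 and Stxbp2 in wild type and for 0 members in either knockout.

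For the 15 genes with more than 1 member probe, the probes often differed. Those of Snap91 differed in sign in old CIAS knockout, at 0.41 (adjusted p 0.0541) and -0.22 (adjusted p 0.35). In old ASC knockout they stood at 0.26 and -0.27, and ILMN_2597032 passed without replicate 6 of old wild type (-0.41, adjusted p 0.0426). Their deviations correlated at -0.179. Those of Vamp3, an endosomal vesicle SNARE, stood at -0.23 and 0.15, and those of Stxbp4 at -0.19 and 0.10, none of them called. The closest pairs were those of Sv2a (r = 0.83), Vamp8 (0.81) and Vamp1 ILMN_2480542 with ILMN_2480543 (0.79). The files do not give which transcript each probe reads, so a call of Pclo, Syt11 or Syn1 is a call of 1 probe.

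**Figure D5:**
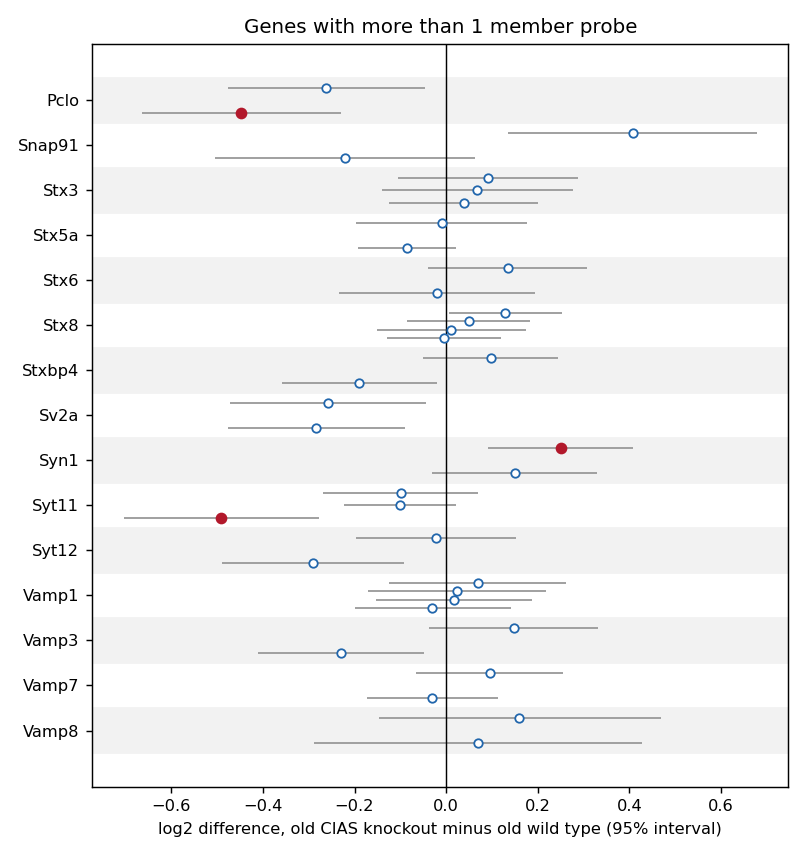
Log2 difference with its 95% interval (x axis), old CIAS knockout minus old wild type, for every probe of the 15 genes with more than 1 member probe, grouped by gene. Filled red points passed adjusted p under 0.05; in Pclo, Syt11 and Syn1 1 probe passed and the others did not, and the 2 probes of Snap91 lie on opposite sides of 0.

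Markers of some other cell types differed between the same groups. Of 9 microglia probes, 6 fell in old CIAS knockout, beside 4.8% of all probes, and 5 in old ASC knockout, beside 2.08%, and the summed level of the 8 genes detected of 9 listed was 1981 to 2405 in old CIAS knockout and 2095 to 2458 in old ASC knockout, against 2688 to 3387 in old wild type, without overlap. Of 14 mature oligodendrocyte probes, 8 fell in old CIAS and 6 in old ASC knockout (beside the same 4.8% and 2.08%), counted with replicate 6 of old wild type. The sum of the 7 genes detected of 8 listed was 13949 to 21990 in old CIAS knockout and 16876 to 20274 in old ASC knockout, against 18329 to 24040 on 5 old wild type arrays and 35736 on replicate 6. In young CASP11 knockout it was 28166 to 29050, against 18241 to 25885 in young wild type. For excitatory neurons, 6 genes detected of 8 listed summed to 9258 to 13415 in old CIAS and 8190 to 10688 in old ASC knockout, against 9384 to 10642 on the 5 old wild type arrays other than replicate 6, and 10337 to 12338 in young CASP11 knockout, against 7975 to 9498 in young wild type. With age in wild type, 6 of 9 microglia probes rose, beside 2.77% of all probes, and their sum was 2688 to 3387 on old arrays, against 2031 to 2230 on young arrays. Of 7 immature neuron probes, 3 fell with age in wild type, beside 2.48% of all probes. The sum of their 6 genes was 545 to 648 in old against 761 to 803 in young CIAS knockout, 550 to 672 in old against 771 to 804 in young ASC knockout, and 574 to 618 in old against 714 to 808 in young wild type, without overlap in each. Astrocyte markers summed to 27025 to 30058 in old CIAS and 28264 to 30234 in old ASC knockout, against 29040 to 30427 on the 5 other old wild type arrays. Inhibitory neuron, endothelial, precursor and choroid plexus sums overlapped between old groups too. Choroid plexus ran from 1130 to 23938 within old CIAS knockout. In young CASP11 knockout inhibitory neuron markers summed to 21893 to 23773, against 24603 to 26004 in young wild type. The part of these cell types in the members' differences was not tested.

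Other genes of the vesicle cycle, outside the symbol rule, were described from a list of 60, of which 46 genes with 68 probes were measured. In old CIAS knockout 3 probes fell and 0 rose (4.41%, beside 7.92% of all probes): Nrxn3, a presynaptic adhesion molecule, by 0.63, Dnajc5, the vesicle chaperone cysteine string protein, by 0.41, and Ap2b1, a subunit of the endocytic AP-2 adaptor, by 0.32 (adjusted p 0.00416, 0.016 and 0.0319). Old ASC knockout had 2 that rose (2.94%, beside 3.82% of all probes), Sh3gl1, an endophilin, by 0.40 and Doc2b, a calcium sensor, by 0.35 (adjusted p 0.0129 and 0.0392). Dnm1, the dynamin of synaptic vesicle endocytosis, rose by 0.59 in young CASP11 knockout (adjusted p 0.0239), the 1 probe called there (1.47%, beside 2.63%). For age in wild type 5 were called (7.35%, beside 5.25%). Dnm1 rose by 0.49 and Syngr1, a vesicle membrane protein, by 0.34, while Doc2b fell by 0.43, Sh3gl1 by 0.37 and Rab3b, a vesicle GTPase, by 0.25 (adjusted p 0.0297, 0.0122, 0.0179, 0.0263 and 0.0307). This comparison and that of old ASC knockout share the old wild type arrays. The opposite calls of Doc2b and Sh3gl1 are therefore not separate results. Both Dnm1 calls likewise share the young wild type arrays. Over the mean of the 3 genotypes 2 were called (2.94%, beside 5.52%). Snapin, a SNAP-25 binding protein, rose by 0.12 and Slc17a6, a vesicular glutamate transporter, fell by 0.49 (adjusted p 0.0465 and 0.035). The other comparisons called 0 of the 68 by limma. There 2 to 11 had an unadjusted p under 0.05 (2.94% to 16.2%, beside 4.5% to 13.8% of all probes).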

How the data were processed

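RNA from 32 hippocampal samples was measured on Illumina bead arrays, with 1 array for each sample. The authors deposited GenomeStudio probe intensity values without normalization, each with a detection p-value, per the file headers and the submitters' processing notes. A second deposited table holds intensity values normalized by a method not given in the sources used here, and served as an alternative. From the first table, background was corrected and values were quantile-normalized with limma 3.58.1 in R 4.3.3 (neqc, offset 16), which gave log2 signals in place of the deposited intensity values. The offset shrinks differences of dim probes. Probes needed a detection p-value under 0.05 on at least 3 arrays (14745 of 25697). A linear model of 7 group means gave 11 comparisons with limma's moderated test, with 25 residual degrees of freedom and Benjamini-Hochberg adjustment over all 14745 probes. Gene names came from the platform annotation, with 1 symbol for 23978 probes, none for 1719 and several for 0. The number of arrays limits the precision.

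The members, gene lists and tests were chosen with earlier results of these data known. By rule, named members were those called (up to 12 per direction for age and 6 for other comparisons), the 3 smallest p-values where none was called, and a list of core release genes. Others, such as Sv2b, Synpr and Vamp3, were named outside this rule, and of these only Unc13c is marked. No 2 arrays held identical values (highest correlation 0.9971). Replicate numbers were not treated as pairs: of 21 pairs of groups, 0 had every same-numbered correlation over 0.1 (range -0.248 to 0.365). Alternatives were other normalizations, filters, array weights, 1 probe per gene, a sex-linked covariate, a block for replicate number, leaving out each array and, added after seeing the data, replicate 6 of old wild type and replicate 5 of old CIAS knockout left out together. The tests were tested on simulated data. Some genes are not reported here.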

Additional observations from a re-analysis of the deposited data

Results flagged for a closer look

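Within groups of 4 or 6 arrays, 10 of 120 sets of values, over 24 named probes, had 1 array far from the others by Dixon's criterion, which chance meets in about 1 in 20. Rims2 read 7.592 on replicate 6 of old CIAS knockout and 8.176 to 8.337 on the others. Among old ASC knockout arrays, Stx1a read 11.537 on replicate 6 (others 11.095 to 11.213), and replicate 4 was low for Stx18, at 7.296 (others 7.463 to 7.535), and for Stx3 ILMN_2665125, at 4.921 (others 5.208 to 5.269). In old wild type, Syp read 12.803 on replicate 6 (others 13.414 to 13.575) and Cplx2 9.101 on replicate 1 (others 8.510 to 8.713). Among young CASP11 knockout arrays, Syp read 13.367 (others 13.500 to 13.512) and Stx6 ILMN_2704177 8.616 (others 8.449 to 8.461), both on replicate 2, and Syn1 ILMN_1235133 read 13.239 on replicate 4 (others 13.125 to 13.139). In young wild type, Pclo ILMN_2665813 read 6.466 on replicate 2 (others 6.687 to 6.702). The cause of these values was not tested.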

How the results depend on the processing

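Over the alternatives, 5435 of the named members' values kept their side of the threshold, 108 lost the call and 30 gained it. Most of the 5435 belong to members not called in the main setting, which had no call to lose. They are therefore no measure of how stable the calls were. Of the values called in either fit, 0 reversed direction. Direction was not compared for values called in neither fit. A percentage after a count is the share of all probes called under the same setting. Members called for mean age numbered 2 in the main setting (5.52%) and 1 without a filter (3%). They numbered 0 with the sex-linked covariate (4.05%) and 0 with the replicate block (3.78%). For age in wild type they numbered 2 in the main setting (5.25%) and 1 without a filter (2.44%). With array weights there were 5 (9.2%), and without both arrays that stand apart 4 (7.05%). For age in CIAS knockout they numbered 0 in the main setting (0.692%), 1 with array weights (2.69%) and 1 without both arrays (1.15%). For the CIAS difference in age effect they numbered 0 in the main setting (0.359%). Array weights called 3 there (2.77%), Syt11, Stx6 and Stxbp5l, and leaving out both arrays 4 (1.95%). For old ASC knockout they numbered 3 in the main setting (3.82%), 2 higher and 1 lower. With array weights they numbered 3 (5.61%), 0 higher and 3 lower. They numbered 1 with 1 probe per gene (3.41%), where fewer probes were tested, and 7 without both arrays (4.5%). For old CIAS knockout they numbered 8 in the main setting (7.92%) and 5 with 1 probe per gene (6.83%). In CASP11 knockout they numbered 2 in the main setting (2.63%), 1 without a filter (1.28%) and 5 with array weights (6.16%). The cause of these changes was not tested. Leaving out 1 array at a time gave 0 to 3 for mean age (0 without young wild type 2, young ASC 4, or young CIAS 2 or 4; 3 without old ASC 4) and 0 to 4 for age in wild type (0 without young wild type 2, 3 or 4; 4 without old wild type 6). It gave 0 to 2 for the CIAS difference in age effect (2 without old wild type 6 or old CIAS 5), 0 to 7 in old ASC knockout (0 without old ASC 4 or 5; 7 without old CIAS 6), 6 to 10 in old CIAS knockout and 0 to 3 in CASP11 knockout (0 without young wild type 3 or CASP11 replicate 1 or 3; 3 without old wild type 6 or old CIAS 6). The other comparisons stayed at 0. Of all probes, the fit without old wild type 6 called 6.73% for age in wild type and 1.24% for the CIAS difference in age effect. In CASP11 knockout it called 4.14%. The shares for the other fits that left out 1 array are not given here. The replicate block ended the mean age calls of Stx1a (adjusted p 0.0958) and Stx12 (adjusted p 0.103). For age in wild type it gave 2 calls (4.5%) in place of Cplx2 and Stxbp2. These were Pclo ILMN_2665813 (0.38, adjusted p 0.0476) and Syt11 ILMN_3063644 (0.44, adjusted p 0.0316). The block gave 4 in old ASC (3.96%), 10 in old CIAS (8.14%) and 2 in CASP11 knockout (2.54%). Dim members, detected on few arrays, are limited by signal over background.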
